A study of Mus musculus with 4 samples.

Results

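The genes of the circadian clock were examined in cultured mouse hair follicle stem cells (HFSCs) after short and long culture. The genes were taken by symbol: the activators Arntl and Clock, the repressors Per1, Per2, Per3, Cry1 and Cry2, the nuclear receptors Nr1d1 and Nr1d2, and the output factor Dbp. They were 10 of the 24346 gene symbols in each library, all 10 were found, and 8 of them reached an FPKM (fragments per kilobase of transcript, scaled to the mapped fragments of the library) of 1 in 2 or more of the 4 libraries and were tested. RNA was sequenced from HFSCs of 10 passages (10p-HFSCs, 2 libraries) and of 48 passages (48p-HFSCs, 2 libraries). All libraries came from cells of 4-week-old C3H/HeN mice, isolated from dorsal skin by sorting for CD49f and CD34 and grown in M-CnT, a serum-free medium, with a passage every week. No genotype or treatment separated the groups, so that passage number was the labelled difference.

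The clock is a loop of transcription and repression that runs in most cells of the body. ARNTL (BMAL1) and CLOCK bind E-box sequences as a pair and switch on the Per, Cry and Nr1d genes, after which PER and CRY proteins block the pair, and the NR1D receptors (REV-ERBs) repress Arntl and other genes through a receptor element. DBP acts downstream on D-box sequences. In skin the loop is known in keratinocytes and hair follicles, where the clock takes part in the timing of hair growth. Cells in culture lose a common phase unless they are synchronised, for instance by a change of medium or serum. The hour of harvest and the time from the last medium change are not given in the sources used here, so that a difference in clock phase and a difference in passage number cannot be told apart. In bulk RNA, fewer cells expressing a gene and less RNA per cell cannot be told apart either.

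The libraries differed beyond passage number. Summed FPKM was 581516 and 719012 in the 10p-HFSC libraries and 666018 and 1414953 in the 48p-HFSC libraries, and the relative depth read from the smallest steps of low FPKM values was 46.7% of the deepest library in 48p-HFSC replicate 2. The labelled cell type was checked by its markers. Keratinocyte markers were abundant in every library, with Krt5 between 1470 and 8160 FPKM. Their summed FPKM was 3750 and 3120 in 10p-HFSCs, compared with 12500 and 8040 in 48p-HFSCs, mostly Krt5 and Krt14. Of the 6 markers, 4 were higher in both 48p-HFSC libraries, Epcam was lower in both, and 1 overlapped. Only Itga6, the gene of CD49f, was called, and it was higher in 48p-HFSCs (difference 1.77, limma adjusted p = 0.014). Cd34 was at no more than 0.234 FPKM in any library, although the cells had been sorted on the CD34 protein before culture. The study itself reported most cultured cells of both passage numbers as positive for CD34 protein. It also reported Cd34 RNA as maintained, by quantitative PCR. The reason for this contrast was not tested. Lgr5 and Lhx2 were at or near 0. Of the other hair follicle stem cell markers, Krt15 was at 136 and 82.6 FPKM against 425 and 18.8, and Sox9 was called lower, from 45.6 and 44.2 FPKM to 20.2 and 8.31 (adjusted p = 0.039). Summed fibroblast markers were 68.9 and 60.2 FPKM in 10p-HFSCs, compared with 0.151 and 0.242 in 48p-HFSCs, nearly all of it Col1a2, with Dcn and Lum at 0 throughout. Summed leukocyte markers were 0.641 and 0.694 against 64.3 and 104 FPKM, nearly all of it Cd74, with Cd3e and Tyrobp at 0. Summed melanocyte markers were 0.699 and 0.829 against 2.36 and 11 FPKM, in 48p-HFSCs mostly Tyr, with Dct at 0. Summed endothelial markers were 2.54 and 2.3 against 1.37 and 0.292 FPKM, mostly Pecam1, with Cdh5 and Kdr at or near 0. Tek overlapped between the groups. The part of these markers in the clock gene values was not tested.

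The loop is known to act on its own genes through E-boxes, D-boxes and receptor elements, and promoter stretches are shown for the 4 tested members whose window held the letters of an E-box, an E-box prime or a D-box. RefSeq windows of 300 bases around a start site (GRCm38.p6) were matched by symbol for 9 of the 10 genes, in 13 windows, and Per2 had no entry. Capitals mark the matches, found on either strand. They are to CACGTG (E-box), CACGTT (E-box prime), TTATGTAA or TTATGCAA (D-box) and AGGTCA (part of a nuclear receptor element). A match on the other strand reads AACGTG or TGACCT. The stretches run from 20 bases before the outermost match to 20 bases after it, or up to the bases before the start site, at chr11:69098763-69098938 (plus strand) for Per1, chr11:98775388-98775425 (minus strand) for Nr1d1, chr4:151044796-151044890 (minus strand) for Per3 and chr10:85185089-85185153 (minus strand) for Cry1.
Per1: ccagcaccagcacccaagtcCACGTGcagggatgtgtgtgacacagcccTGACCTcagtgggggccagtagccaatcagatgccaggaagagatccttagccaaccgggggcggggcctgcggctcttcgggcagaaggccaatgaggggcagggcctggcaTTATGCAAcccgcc
Nr1d1: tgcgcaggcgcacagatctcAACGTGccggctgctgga
Per3: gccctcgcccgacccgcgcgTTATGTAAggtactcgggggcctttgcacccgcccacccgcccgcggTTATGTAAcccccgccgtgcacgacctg
Cry1: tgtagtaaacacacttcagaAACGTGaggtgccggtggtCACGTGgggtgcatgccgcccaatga

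The Per1 stretch held an E-box, a match to AGGTCA and a D-box. The Per3 stretch held 2 D-boxes, and the Cry1 stretch held an E-box and an E-box prime. AGGTCA is only part of a receptor element, and the bases beside it were not tested. Among all 32851 RefSeq windows of this length, 7.15% held CACGTG, 4.68% held CACGTT, 1.66% held a D-box and 16.3% held AGGTCA. Of the other members, Cry2 had an E-box prime, 1 window each of Clock, Arntl and Nr1d2 had AGGTCA, and the Dbp window had none of these letters. No matches overlapped. These are matches of letters only, and no binding was measured.

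Arntl and Cry1 were lower in 48p-HFSCs and Clock was lower without passing the test, whereas Nr1d1, Dbp, Per1 and Per3 were higher in both 48p-HFSC libraries, also without passing it. Arntl fell 2.69-fold and Cry1 fell 2.97-fold between the group means, and these were the 2 clock genes called. A gene was called at a Benjamini-Hochberg adjusted p of limma below 0.05 over 11018 genes and a difference of at least 1 on the log2(FPKM + 1) scale, and 19.9% of the genes tested were called, 10.8% higher and 9.15% lower. Against that background, 2 of 8 clock genes were called lower and 0 higher, while 5 had an unadjusted p under 0.05, 2 of them higher and 3 lower, beside 37.4% of all genes tested. In 4 clock genes the lower 48p-HFSC library exceeded the higher 10p-HFSC library, which held for 31.7% of the genes tested, and in 3 the reverse was the case, which held for 34.3%. The median difference of the 8 genes was 0.47 on the log2 scale, beside -0.03 over all genes tested.

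**Figure D1:**
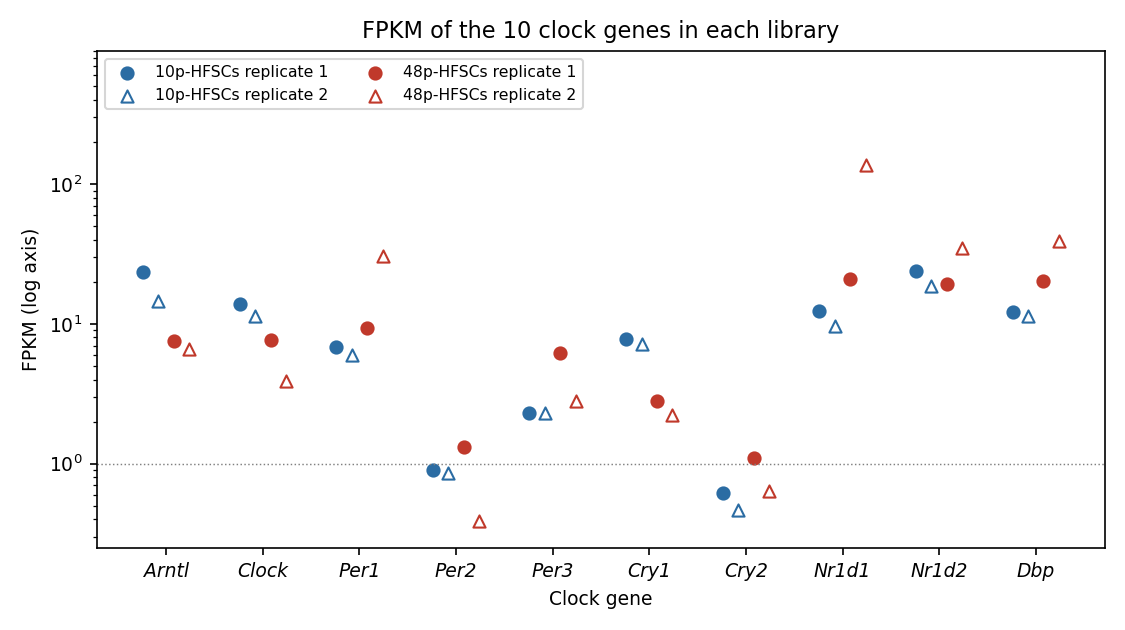
FPKM of each clock gene (log axis) in the 2 libraries of 10p-HFSCs and the 2 of 48p-HFSCs, with a dotted line at an FPKM of 1. Arntl, Clock and Cry1 lay lower in both 48p-HFSC libraries, and Nr1d1 ran from 20.9 to 138 FPKM between the 48p-HFSC libraries.

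Arntl (7:113207465-113314126, plus strand, mm10) encodes BMAL1, the partner without which the loop stops. The 10p-HFSC replicates had 23.6 and 14.5 FPKM and the 48p-HFSC replicates 7.53 and 6.64. Every 48p-HFSC value was below every 10p-HFSC value, and the difference was -1.28 ± 0.32 (SE) on the log2(FPKM + 1) scale, with an adjusted p of 0.041 (limma, n = 2 per group). Each 48p-HFSC library alone gave nearly the same distance from the 10p-HFSC mean, -1.20 and -1.36. The call did not hold without any 1 of the 4 libraries, where the difference lay between -1.61 and -0.94. A fit with 1 library in a group measures the spread of a gene in the other group alone. For single genes, differences are therefore given from such fits without p-values. Where a call is said to be kept or lost in them, it rests on the spread of the other group alone. Without either 10p-HFSC library, far fewer of all genes tested were called as well. The call of Arntl also did not hold with TPM rescaling (difference -1.83, adjusted p = 0.1) or with no filter on low values (difference -1.28, adjusted p = 0.077).

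Clock (5:76209868-76304792, minus strand) encodes the partner of BMAL1. Its FPKM was 13.8 and 11.3 in 10p-HFSCs, next to 7.71 and 3.88 in 48p-HFSCs. The groups did not overlap, and the replicates of 48p-HFSCs stood further apart than those of 10p-HFSCs. The difference of -1.05 (95% interval -1.94 to -0.16) did not pass the test, with an adjusted p of 0.095. It was -1.47 without 48p-HFSC replicate 1 and -0.63 without replicate 2. The log2 ratio of Arntl to Clock, taken of FPKM + 1, overlapped between the groups. It was 0.74 and 0.34 at 10 passages and -0.03 and 0.65 at 48 passages.

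The CRY proteins are the strong repressors of the pair. Cry1 (10:85131700-85185064, minus strand) was at 7.75 and 7.21 FPKM in 10p-HFSCs and at 2.81 and 2.23 FPKM in 48p-HFSCs. The replicates were close within each group and the groups were apart, with a difference of -1.27 ± 0.27 (SE) on the log2 scale and an adjusted p of 0.025 (limma). With 1 library left out the difference lay between -1.39 and -1.15. The call was kept without 48p-HFSC replicate 1 and lost without any other library. TPM rescaling (difference -1.78, adjusted p = 0.13) and leaving off the filter (difference -1.27, adjusted p = 0.067) also ended it. Cry2 (2:92403646-92434043, minus strand) had 0.618 and 0.467 FPKM in 10p-HFSCs, next to 1.09 and 0.634 in 48p-HFSCs, reached 1 FPKM in 1 library and was not tested. Cry1 stood 12.5 and 15.4 times as high as Cry2 in 10p-HFSCs and 2.58 and 3.52 times in 48p-HFSCs, per unit of transcript length.

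The PER proteins join CRY in repression, and Per1 and Per2 are also induced directly by stimuli such as serum and glucocorticoid. Per1 (11:69095217-69109960, plus strand) was at 6.78 and 5.95 FPKM in 10p-HFSCs and at 9.38 and 30.4 FPKM in 48p-HFSCs. Both 48p-HFSC libraries were higher, but replicate 2 was 3.23 times as high as replicate 1. The difference was 1.30 (95% interval -0.01 to 2.60) with an adjusted p of 0.14. It was 2.09 without 48p-HFSC replicate 1 and 0.5 without replicate 2. Per3 (4:151003652-151044665, minus strand) was at 2.32 and 2.3 FPKM in 10p-HFSCs and at 6.17 and 2.80 FPKM in 48p-HFSCs. Here 48p-HFSC replicate 1 was the higher one, the opposite of Per1, and the difference of 0.66 had an adjusted p of 0.24. The difference of Per3 was 1.12 without 48p-HFSC replicate 2 and 0.2 without replicate 1. Per3 lies within the span of Camta1 on the same strand, and Camta1 was at 1.89 and 2.39 FPKM against 5.3 and 7.47. Per2 (1:91415982-91459324, minus strand) was at 0.894 and 0.86 FPKM in 10p-HFSCs and at 1.32 and 0.39 FPKM in 48p-HFSCs, with the 10p-HFSC values between those of 48p-HFSCs, and was not tested.

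Nr1d1 (11:98767932-98775333, minus strand), encoding REV-ERBα, had the largest difference of the 8 genes over all libraries, though not without 48p-HFSC replicate 2, where Arntl, Cry1 and Per3 differed more. Its FPKM was 12.4 and 9.73 in 10p-HFSCs, next to 20.9 and 138 in 48p-HFSCs. Both 48p-HFSC libraries were above the 10p-HFSC libraries, yet they differed from each other 6.63-fold. The difference was 2.2 (95% interval 0.18 to 4.22) with an adjusted p of 0.11, and it was 0.87 with 48p-HFSC replicate 1 alone and 3.54 with replicate 2 alone. Without 10p-HFSC replicate 1 the difference was 2.36, and without 10p-HFSC replicate 2 it was 2.04. Nr1d1 overlaps Thra on the opposite strand over 1075 bases, and Thra was at 16.2 and 12.8 FPKM against 13.4 and 8.35. Its paralogue Nr1d2 (14:18204054-18239127, minus strand), encoding REV-ERBβ, was at 24.1 and 18.6 FPKM in 10p-HFSCs and at 19.3 and 35.0 FPKM in 48p-HFSCs. The groups overlapped, and the difference was 0.28 (95% interval -0.59 to 1.16), with the sign turned to -0.28 by TPM rescaling and to -0.13 without 48p-HFSC replicate 2. The ratio of Nr1d1 to Nr1d2 was 0.515 and 0.523 in 10p-HFSCs, next to 1.08 and 3.95 in 48p-HFSCs.

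Dbp (7:45705088-45710203, plus strand) is a direct target of the activator pair and is often read as an output of the loop. Its FPKM was 12.2 and 11.3 in 10p-HFSCs, next to 20.3 and 39.5 in 48p-HFSCs. Both 48p-HFSC libraries were higher, and the difference of 1.21 (95% interval 0.31 to 2.1) had an adjusted p of 0.067. It was called with quantile normalization (adjusted p = 0.037). The difference of Dbp was 1.67 without 48p-HFSC replicate 1 and 0.74 without replicate 2. Dbp overlaps Sphk2 on the opposite strand over 737 bases, and Sphk2 was at 9.94 and 13.8 FPKM against 19.1 and 32.9. The strand setting of the authors' counting is not given in the sources used here, so that reads of the overlapping parts of these genes cannot be assigned with certainty.

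**Figure D2:**
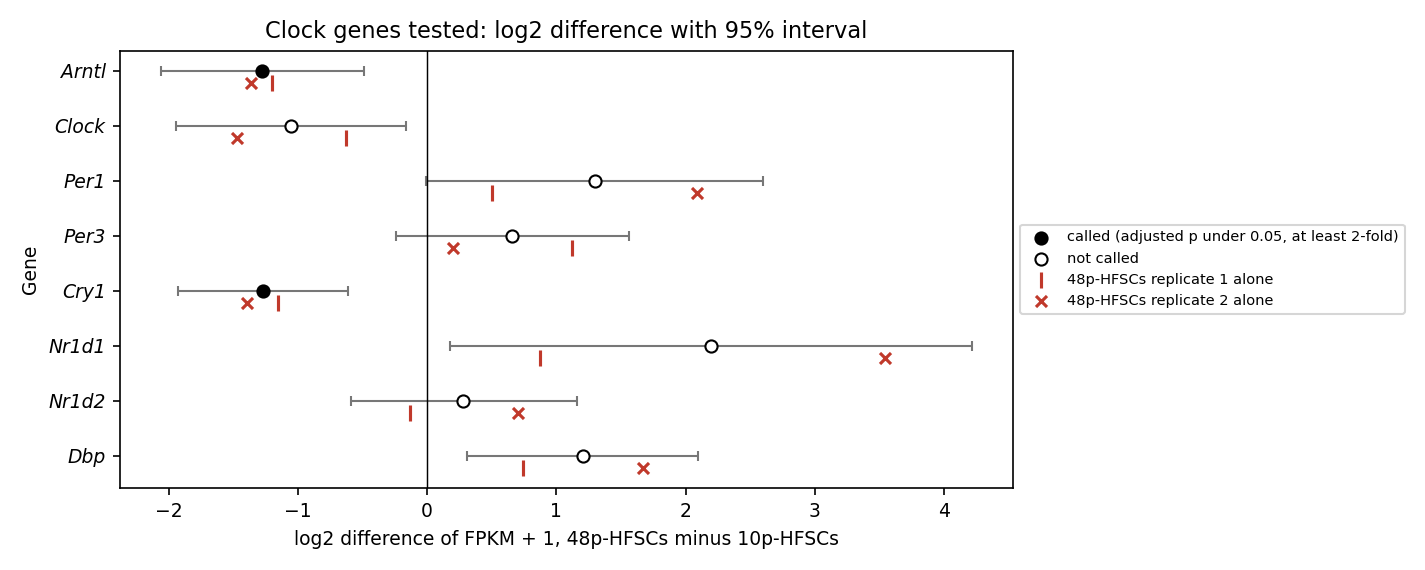
Difference between 48p- and 10p-HFSCs on the log2(FPKM + 1) scale for the 8 clock genes tested, with 95% intervals, filled points for the called genes, red bars for 48p-HFSC replicate 1 alone and red crosses for replicate 2 alone against the 10p-HFSC mean. Arntl and Cry1 were called, and the intervals of Per1, Per3 and Nr1d2 crossed 0.

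The replicates of 48p-HFSCs stood further apart than those of 10p-HFSCs for 7 of the 8 clock genes tested, beside 73.4% of all genes tested. They were 2-fold or more apart for Nr1d1 and Per1, whereas 17.0% of all genes tested were as far apart. Both were higher in replicate 2, and 8.69% of all genes tested were higher in replicate 2 by 2-fold or more. At any distance, 4 of 8 clock genes were higher in replicate 2, beside 50.3% of all genes. In 10p-HFSCs no clock gene had replicates 2-fold or more apart, beside 1.37% of the genes tested. The difference between 48p-HFSC replicates 2 and 1 was 2.67 for Nr1d1, 1.59 for Per1, 0.92 for Dbp and 0.83 for Nr1d2 on the log2 scale. It was -0.92 for Per3, -0.84 for Clock, -0.24 for Cry1 and -0.16 for Arntl. After a correction for transcript length, the values were 2.6 for Nr1d1, 1.72 for Per1, 0.94 for Nr1d2 and 0.84 for Dbp, and -0.67 for Per3, -0.53 for Clock and -0.28 for Cry1. Arntl turned to 0.03, so that 5 of 8 were then higher in replicate 2.

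**Figure D3:**
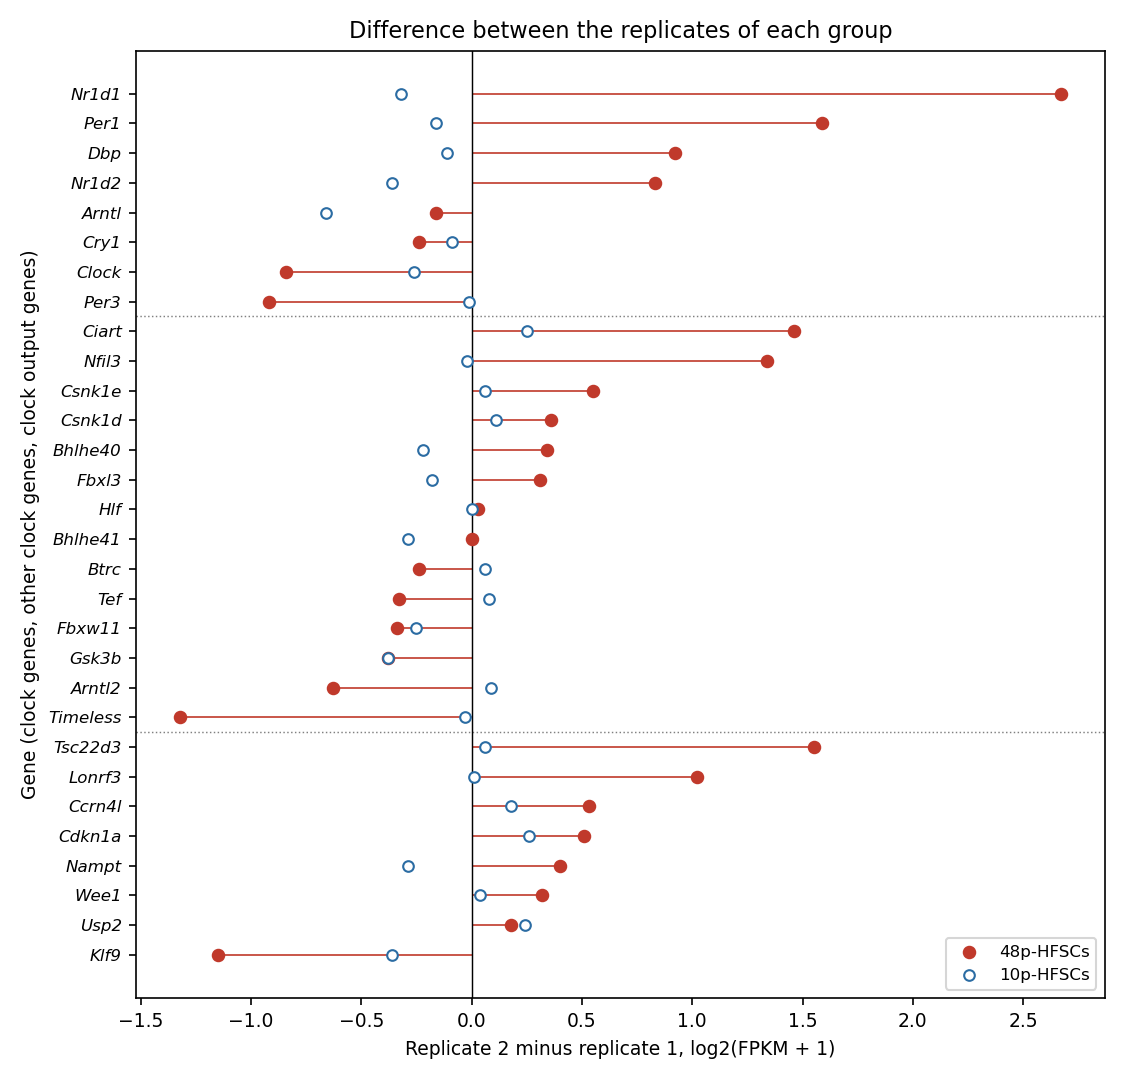
Difference between replicate 2 and replicate 1 of each group, in log2(FPKM + 1), for the clock genes, the other clock genes and the clock output genes tested. Nr1d1 reached 2.67 and Per1 1.59 in 48p-HFSCs, while the 10p-HFSC differences of the clock members lay between -0.66 for Arntl and -0.01 for Per3.

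The order of the levels differed between the groups. At 10 passages the mean FPKM ran down from Nr1d2 (21.4 ± 3.89, SD) through Arntl (19.1 ± 6.42), Clock (12.5 ± 1.75), Dbp (11.8 ± 0.663) and Nr1d1 (11.1 ± 1.89) to Cry1 (7.48 ± 0.385) and Per1 (6.36 ± 0.588). Per3 followed at 2.31, Per2 at 0.877 and Cry2 at 0.543, and the neighbours Nr1d2 and Arntl, Clock and Dbp, and Dbp and Nr1d1 overlapped. At 48 passages it ran down from Nr1d1 (79.6 ± 83.0) through Dbp (29.9 ± 13.6), Nr1d2 (27.1 ± 11.2) and Per1 (19.9 ± 14.8) to Arntl (7.09 ± 0.634) and Clock (5.79 ± 2.71). Per3 at 4.48, Cry1 at 2.52, Cry2 at 0.86 and Per2 at 0.855 came last, and only Per1 and Arntl, and Cry1 and Cry2, were neighbours whose ranges stood apart.

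Plain FPKM ratios between members do not depend on the scaling of a library. Of the 7 pairs compared as log2 ratios of FPKM + 1, the ratio of Arntl to its repressor Nr1d1 differed most, by -3.48. Those log2 ratios still depend on scaling through the pseudocount, and with a pseudocount of 0.1 this difference was -3.66. Arntl was 1.9 and 1.49 times as high as Nr1d1 in 10p-HFSCs and 0.361 and 0.048 times as high in 48p-HFSCs. Dbp was 0.518 and 0.777 times as high as Arntl in 10p-HFSCs and 2.7 and 5.95 times in 48p-HFSCs. Neither ratio overlapped between the groups, and an exact permutation test of 2 against 2 libraries cannot go below a 2-sided p of 0.33, so that no p is given.

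**Figure D4:**
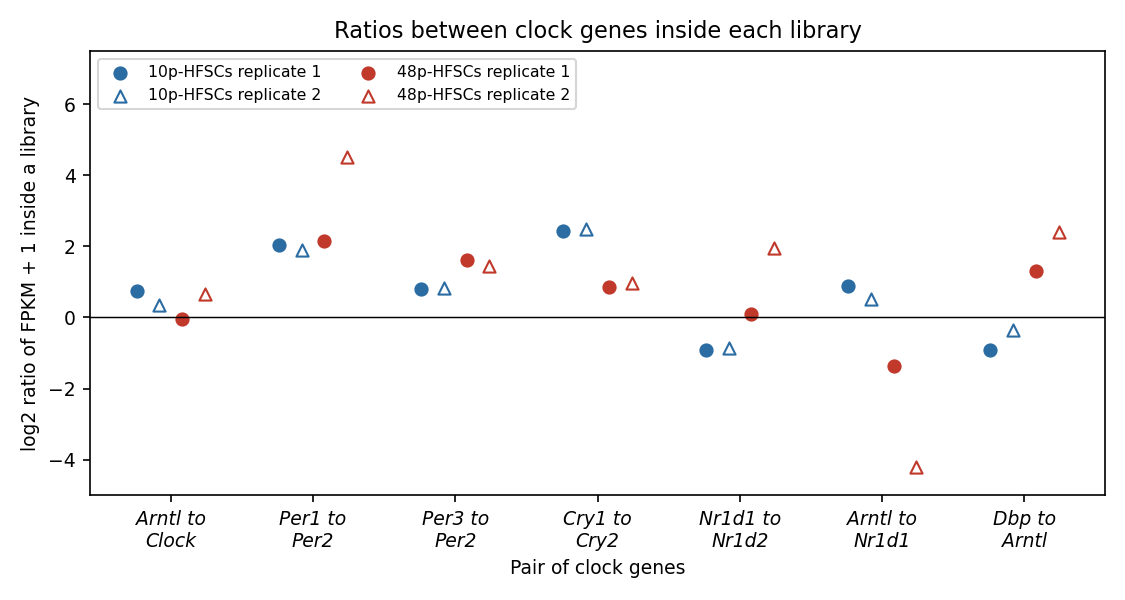
Log2 ratios of FPKM + 1 between pairs of clock genes in each library. The ratios of Arntl to Nr1d1 and of Cry1 to Cry2 lay lower, and those of Dbp to Arntl and of Nr1d1 to Nr1d2 higher, in both 48p-HFSC libraries, while Arntl to Clock overlapped.

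Among 18 further genes of the clock, 14 were tested. Of these, 1 was called higher and 1 lower, beside 10.8% and 9.15% of all genes tested. Both 48p-HFSC libraries lay above in 3 and below in 7, beside 31.7% and 34.3% of all genes tested. The median difference was -0.35, beside -0.03 over all genes tested. Bhlhe40 and Bhlhe41 encode the paralogous repressors DEC1 and DEC2, which compete at E-boxes. Bhlhe40 rose from 25.8 and 22 FPKM to 45.1 and 57.4 FPKM (difference 1.06 ± 0.26, adjusted p = 0.04). The call was lost with no filter, with TPM (0.5, adjusted p = 0.5) and with quantile normalization (0.96). It was also lost without any 1 of 3 libraries, and with 1 library left out the difference lay between 0.89 and 1.24. Bhlhe41 was at 5.99 and 4.73 FPKM at 10 passages, was at 0 in each library of 48 passages, and was called lower with an adjusted p of 0.0019. It passed the filter only through the 10p-HFSC libraries, so its high group decided that it was tested. With no filter it was also called lower (limma, adjusted p = 0.011).

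Nfil3, a repressor at the D-box, was at 8.50 and 8.35 FPKM in 10p-HFSCs and at 14.0 and 37.1 FPKM in 48p-HFSCs, with a difference of 1.34 and an adjusted p of 0.094. Its 48p-HFSC replicate 2 was the high one, as for Nr1d1. Hlf, a relative of Dbp, was at 1.10 FPKM in both 10p-HFSC libraries and at 0.0756 and 0.0958 FPKM in 48p-HFSCs, and its difference of -0.95 missed the limit of 1 at an adjusted p of 0.028. It was called lower with a pseudocount of 0.1 (-2.69, adjusted p = 0.008) and with TPM rescaling (-1.31, adjusted p = 0.024). Hlf passed the filter only through the 10p-HFSC libraries. Arntl2, a paralogue of Arntl, was at 11.5 and 12.3 FPKM against 7.71 and 4.64 FPKM, with a difference of -0.88 and an adjusted p of 0.10. Ciart, a repressor of the activator pair that was named after its values were seen, was at 4.02 and 4.98 FPKM against 4.05 and 12.9 FPKM, and its groups overlapped. The other 8 lay between -0.80 for Timeless and 0.71 for Csnk1e, with adjusted p of 0.13 or more. Npas2, a paralogue of Clock, was at 0.27 and 0.67 FPKM in 10p-HFSCs and was listed at 0 in 48p-HFSCs. Npas2, Rora, Rorb and Fbxl21 were not tested, and Rorb was at 0 in all 4 libraries.

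**Figure D5:**
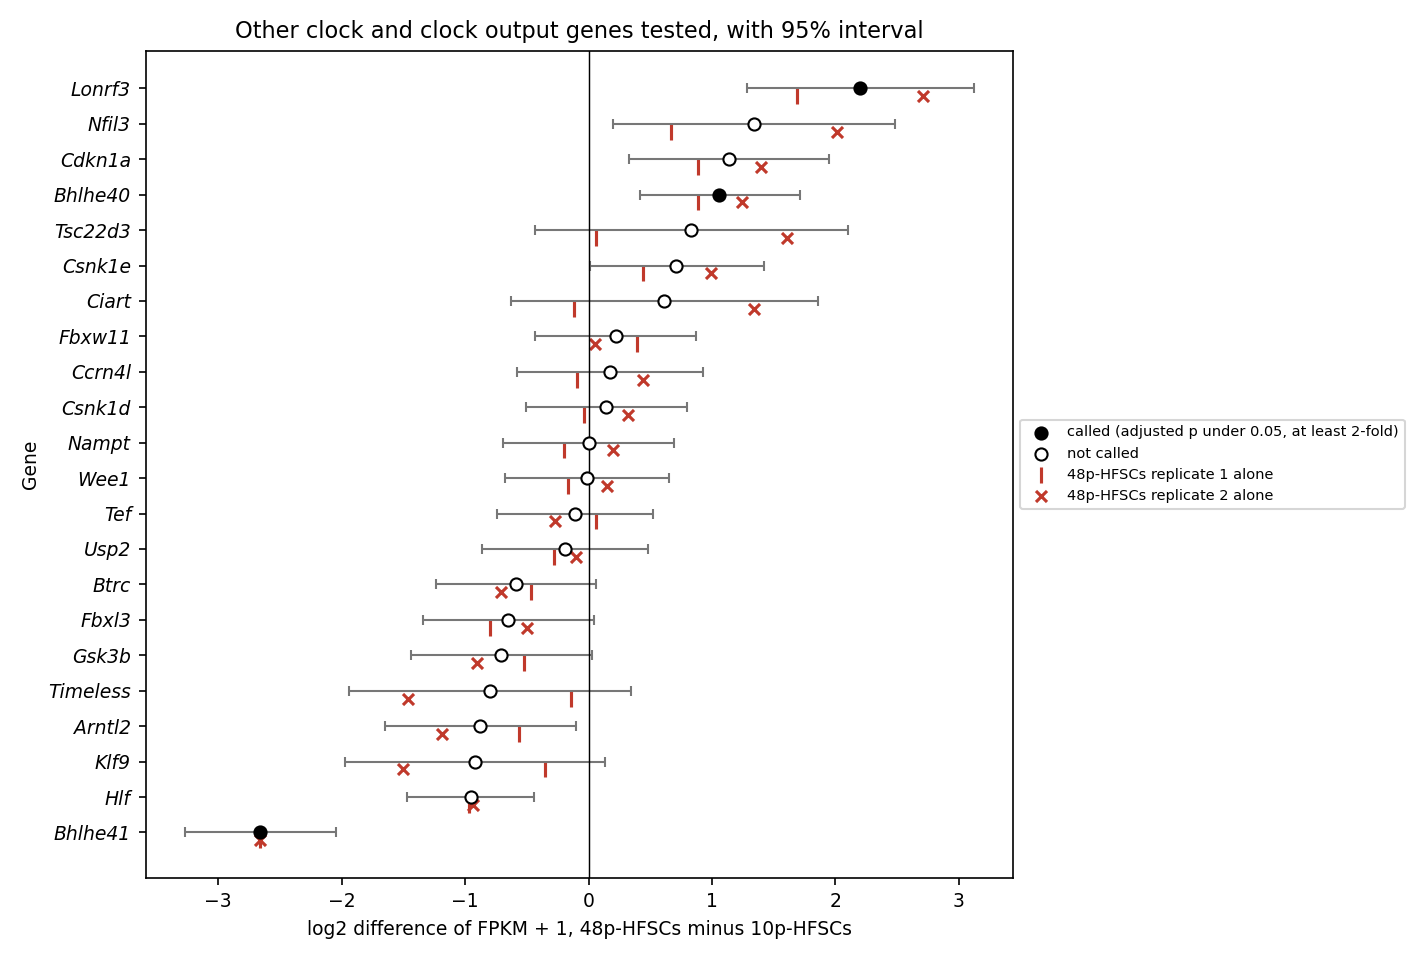
Difference between 48p- and 10p-HFSCs on the log2(FPKM + 1) scale for the other clock genes and clock output genes tested, with 95% intervals and the same symbols as in the plot of the clock gene differences. Bhlhe40 and Lonrf3 were called higher and Bhlhe41 lower.

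Of 8 genes known as targets or outputs of the clock, all were tested. By limma 1 was called higher and 0 lower, beside 10.8% and 9.15% of all genes tested. An unadjusted p under 0.05 was reached by 2, both higher, beside 37.4% of all genes tested. Lonrf3 was at 0 and 0.00953 FPKM in 10p-HFSCs and at 2.24 and 5.58 FPKM in 48p-HFSCs, a difference of 2.2 ± 0.37 (SE) with an adjusted p of 0.013. The call was lost without 10p-HFSC replicate 1 (difference 2.19) and without 10p-HFSC replicate 2 (2.21). Lonrf3 passed the filter only through the 48p-HFSC libraries, so its high group decided that it was tested. With no filter it was also called higher (limma, adjusted p = 0.04). Cdkn1a, encoding the cell cycle inhibitor p21, was at 91.4 and 110 FPKM against 186 and 265 FPKM, with an adjusted p of 0.059. Klf9 was at 3.83 and 2.77 FPKM against 2.35 and 0.513 FPKM, with a difference of -0.92 and an adjusted p of 0.17. Tsc22d3, a glucocorticoid-induced gene, was at 10.6 and 11.1 FPKM against 11.3 and 35.1 FPKM, so that its 48p-HFSC replicate 2 stood above the other 3 libraries. The other 4 lay between -0.19 for Usp2 and 0.17 for Ccrn4l, and all 4 overlapped between the groups.

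The genes whose pattern over the 4 libraries was most like that of Nr1d1, by the root mean square distance of centred log2(FPKM + 1), were Arrdc4 (0.128), Hist1h4i (0.271) and Pim3 (0.305). Arrdc4 was at 7.72 and 7.7 FPKM in 10p-HFSCs and at 16.5 and 99.9 FPKM in 48p-HFSCs, and Pim3 at 11.6 and 12.3 against 26.2 and 104 FPKM.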

How the data were processed

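RNA of 4 libraries (2 of 10p-HFSCs, 2 of 48p-HFSCs) was made into libraries with a stranded mRNA kit and read as single ends of 101 bases. Per the labels, the authors mapped reads to mm10 with TopHat2 2.1.1, Bowtie2 2.2.8 and SAMtools 0.1.18, and the deposited FPKM values, 1 per gene symbol and library, came from Cuffdiff 2.2.1. The annotation and strand setting are not given in the sources used here. FPKM divides by transcript length and total, so that a library's sum over genes still differs (581516 to 1414953).

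From these, log2(FPKM + 1) was fitted with limma 3.58.1 in R 4.3.3 (lmFit, eBayes with a variance trend) for genes with an FPKM of 1 or more in 2 or more libraries, and p was adjusted by Benjamini-Hochberg over all 11018 genes. Since the pseudocount of 1 shrinks differences of low genes, fold changes are on that scale unless given as ratios of mean FPKM. The model was first run on simulated data with equal spread in both groups and unrelated libraries. These data differ from that setting, and the outcome is not used here. Nothing says that the replicates were separate cultures, so p-values measure only the spread between these samples. Depth is not given as counts, so no counting intervals were made. The members and gene lists were chosen with earlier results of these data known. Named genes were the members, every called gene of the further lists and the 3 largest differences not called in each. From the further clock list 1 gene is not reported here and is in none of that list's counts. Positions are from GENCODE M21 (GRCm38), promoter sequences from RefSeq. Alternatives were another pseudocount, no filter, TPM, median-of-ratios and quantile scaling, a constant prior, a replicate block with and without a length correction, and leaving out each library.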

Additional observations from a re-analysis of the deposited data

How the results depend on the processing

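TPM rescaling moved the median of all genes by -0.52 on the log2 scale. Calls then numbered 623 higher and 812 lower, a higher share of 43.4% instead of 54.1%, and relative to that median Arntl was at -1.27, Cry1 at -1.22, Nr1d1 at 2.21 and Dbp at 1.21. Nr1d2 reversed to -0.28 with TPM and to -0.13 without 48p-HFSC replicate 2, Ciart to -0.12 without 48p-HFSC replicate 2, and the Arntl to Clock ratio to 0.11 without 48p-HFSC replicate 1. With a pseudocount of 0.1 the Per3 to Per2 ratio differed by 1.05 and the Cry1 to Cry2 ratio by -2.09. At that setting 2 other clock genes were called lower, beside 931 of all 11018 genes tested. Without the filter 637 genes were lower in all, 0 clock members were called lower, and 0 other clock genes higher. With TPM 0 members were called lower, and of the other clock genes 0 were called higher and 2 lower. With quantile normalization 1 member and 0 other clock genes were called higher, beside 1286 of all 11018 genes tested. The replicate block called 3 members (Nr1d1, adjusted p = 0.0037, Dbp, 0.0071, and Per1, 0.014), 2 other clock genes and 2 output genes higher, and the same numbers with the length correction. It called Clock (adjusted p = 0.013) lower beside Arntl and Cry1, and with the length correction Clock was not called. The replicate numbers are only shared: deviations of same-numbered libraries correlated at 0.408 over 11018 genes, and the block raised the called share from 19.9% to 28.2%.

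Leaving out 1 library left 35 to 1936 genes higher and 140 to 1875 lower, 0 to 3 members higher and 0 to 2 lower, 0 to 3 other clock genes higher and 1 to 3 lower, and 0 to 3 output genes higher and 0 to 1 lower, with the lone sample assumed to vary like the other group. The difference of Nr1d2 then ran from -0.13 to 0.7, that of Ciart from -0.12 to 1.34, and that of the Arntl to Clock ratio from -0.57 to 0.11. The causes were not tested. Of the single-gene values, 169 kept direction and side of the threshold, 25 newly passed it, 19 no longer passed and 3 reversed. FPKM without counts leaves the precision of genes near 1 FPKM, such as Per2 and Cry2, unknown.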
